A study of Mus musculus with 29 samples.

Results

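The 8 genes of the early transcriptional response described here were followed through every library: Fos, Fosb, Jun, Junb, Jund, Atf3, Egr1 and Ier2, which are 8 of the 19704 genes in the young brain tables, 27514 in the aged brain tables and 16623 in the blood tables. They were taken by their gene symbols. For each library, the counts of all cells of 1 cell type were summed, and a gene's level is its count scaled to a sum of 1000000, written CPM. This level does not separate the share of cells that transcribe a gene from the amount per cell. The libraries are single-cell RNA profiles made with Drop-seq, in which cells are captured in droplets with barcoded beads, from C57BL/6J mice after transient occlusion of the middle cerebral artery, a model of stroke, or after sham surgery. Young brain libraries came from males of 8 to 10 weeks, with 4 sham libraries at day 2, 4 stroke libraries at day 2 and 4 stroke libraries at day 14. Blood of males of the same age gave 4 sham libraries at day 2, 4 stroke libraries at day 2 and 3 stroke libraries at day 14. Aged brain libraries, from mice of 17 to 20 months, comprised 2 sham libraries at day 2 (1 male and 1 female), 3 stroke libraries at day 2 (1 male and 2 female) and 1 female stroke library at day 14. No sham library is labelled day 14, so that every day 14 library is set against the day 2 sham libraries, and time since surgery and stroke cannot be told apart in that comparison. Each brain library pooled 4 to 5 hemispheres, digested with papain and sorted into microglia, CD45-high leukocytes and endothelial cells. The digestion solution held actinomycin D at 5 µg/ml, which blocks RNA polymerase, Brilliant Blue G at 1 µM, a blocker of the P2X7 receptor, and AP-5 at 25 nM, a blocker of the NMDA receptor. Blood was pooled from 2 mice per library, freed of red cells by lysis and an anti-Ter-119 antibody, and handled with actinomycin D and Brilliant Blue G at the same doses.

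As background, AP-1 is a transcription factor made of a pair of proteins joined through a leucine zipper. Fos and Fosb need a Jun protein as partner, while Jun, Junb and Jund can also pair among themselves. Atf3 is a stress-induced member of the same wider zipper family that pairs with Jun proteins, Egr1 is a zinc finger factor, and Ier2 encodes a small nuclear protein without a zipper. The genes are known as immediate early genes, because stored factors such as SRF, the Elk proteins and CREB switch them on, within a short time after MAP kinase or calcium signals and without new protein synthesis. Their transcripts are short-lived. In brain they are known for their response to ischaemia, and in microglia and endothelium also for their response to the dissociation of tissue, which is why transcription blockers are added during digestion.

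The promoters of Fos, Fosb, Jun, Junb and Atf3 are shown, the members left after the exclusions given in this paragraph. Like Egr1 and Jund, these 5 genes were called higher in endothelium at day 14 than at day 2, as described below. Each stretch holds the 150 bases before the RefSeq start of transcription on GRCm38.p6, read 5′ to 3′ along the gene, with matches to the motifs named after it in capitals. RefSeq promoters were taken for 6 of the 8 genes. Egr1 was left out beforehand and Ier2 had no match in the promoter set used, so neither is in the motif counts. That of Jund was not printed because its RefSeq start lies 1210 bases before the start of the gene in the GENCODE annotation. A window was left out only where the RefSeq start lay more than 500 bases before the GENCODE start. The Fos and Jun starts are the same in both annotations, and the Atf3 window lies inside the longer GENCODE gene (191170296 to 191218039 on chromosome 1). For Atf3 the GENCODE start lies at -34706 bases from the RefSeq start, read along the gene, a distance that this limit did not cover.
Fos, chr12:85473740-85473889, plus strand: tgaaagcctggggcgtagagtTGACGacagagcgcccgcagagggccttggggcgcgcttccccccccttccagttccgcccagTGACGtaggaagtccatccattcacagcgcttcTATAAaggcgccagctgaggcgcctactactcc
Fosb, chr7:19310046-19310195, minus strand: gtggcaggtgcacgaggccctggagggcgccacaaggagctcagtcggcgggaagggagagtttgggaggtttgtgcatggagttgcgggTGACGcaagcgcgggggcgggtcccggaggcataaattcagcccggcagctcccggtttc
Jun, chr4:95052223-95052372, minus strand: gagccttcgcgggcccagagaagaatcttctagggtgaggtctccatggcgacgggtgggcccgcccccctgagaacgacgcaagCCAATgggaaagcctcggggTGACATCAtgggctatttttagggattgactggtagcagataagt
Junb, chr8:84978749-84978898, minus strand: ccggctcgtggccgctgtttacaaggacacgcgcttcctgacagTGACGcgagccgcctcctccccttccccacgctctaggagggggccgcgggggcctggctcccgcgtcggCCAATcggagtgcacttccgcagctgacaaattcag
Atf3, chr1:191183334-191183483, minus strand: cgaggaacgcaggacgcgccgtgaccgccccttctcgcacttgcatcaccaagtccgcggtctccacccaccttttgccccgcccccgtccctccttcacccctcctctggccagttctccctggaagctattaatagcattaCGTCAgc
The motifs were searched on both strands. TGACG, the core of the cAMP response element that CREB proteins bind, was in 4 of the 5 stretches (Fos, with 2 copies, Fosb, Junb and, on the other strand, Atf3) and in 13.3% of 32851 RefSeq promoters over the same 150 bases. TGACNTCA, a pattern that takes in the full response element and its variants at the fifth base (some of its forms hold TGACG as well), was in that of Jun alone (as TGACATCA, a variant, 45 to 38 bases before the start) and in 5.70% of promoters. The AP-1 site TGACTCA was in none of the 5 and in 2.84% of promoters, and the CArG box that SRF binds in none and in 0.916%. TATAA was in that of Fos (14.2% of promoters), and CCAAT in those of Jun and Junb (24.5%). A match is a stretch of letters in this window and says nothing of whether a factor was bound.

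The 29 libraries held 1143 to 6328 cells and 819438 to 5855047 counts each, and their median cells had 321 to 1363 counts. Of 106624 cell barcodes, 345 (0.324%) occurred in more than 1 library. The cell types are the parent classes of the deposited annotation. Each class used below had its own marker list highest among the lists of 6 genes, except the class DC, whose monocyte and macrophage markers exceeded its dendritic markers in brain and in blood. A few features of the libraries touch the results. In young brain, 5 libraries (sham replicate 1, day 2 replicates 1 and 2, day 14 replicates 1 and 2) had a median of 0.496 to 1.12% mitochondrial counts per endothelial cell and the other 7 had 5.47 to 8.62%. Each brain result was therefore also fitted with this split as a term, an alternative chosen after seeing the data. The day 2 replicate 3 held 58 microglia, whose summed microglial markers reached 817 CPM against 9815 to 21335 CPM in the other young libraries. In blood, day 2 replicate 2 gave the highest level of its group in 29 of 30 values (a gene in a cell type, with a group mean of at least 20 CPM). Among the brain sham libraries, replicate 3 gave the highest level in 34 of 63 such values and replicate 4 the lowest in 34 of 63.

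In the brain of young sham mice, border macrophages (the annotated class BAM, macrophages of the brain's surfaces and vessels) and microglia had the highest means: border macrophages for Fos, Fosb, Junb, Jund, Atf3 and Ier2, and microglia for Jun and Egr1. The orders here and in the next paragraph hold only classes with at least 3 libraries. Others, such as NK cells (1 library, with Fos at 102 CPM), are left out. Fos had its highest mean in border macrophages, with 2497 ± 543 CPM (mean ± SD, n = 4 libraries here and below), followed by monocyte-derived cells (class MdC) with 2020.5 ± 256 CPM, microglia with 1421 ± 1146 CPM, granulocytes with 978 ± 307 CPM, DC with 902 ± 204 CPM and endothelium with 722 ± 492 CPM. B cells, with 475 ± 277 CPM, and T cells, with 308 ± 106 CPM, were lowest. No neighbours in that order were apart in all their libraries, and the same held for Fosb (726 ± 312 CPM in border macrophages down to 97.2 ± 85.9 CPM in granulocytes), Junb (1303 ± 113 CPM in border macrophages down to 365 ± 61.6 CPM in endothelium), Jund (514 ± 150.3 CPM in border macrophages down to 253 ± 70.8 CPM in DC) and Ier2 (739 ± 98.2 CPM in border macrophages down to 238 ± 86.5 CPM in T cells).

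For Jun, Atf3 and Egr1 the order held steps that no library crossed. Jun was highest in microglia (3447 ± 2247 CPM), border macrophages (2701 ± 906 CPM) and endothelium (1645 ± 855 CPM, libraries of 892 to 2844 CPM). Every endothelial library lay above the DC libraries, the next in order, and every T cell library above the granulocytes, which were lowest at 137 ± 30.9 CPM. Atf3 was highest in the macrophage, monocyte and DC classes, from 965 ± 402 CPM in border macrophages through 739.6 ± 243 CPM in monocyte-derived cells and 703 ± 255 CPM in DC to 650.3 ± 568 CPM in microglia. Below that step it was at 80.6 ± 43.5 CPM in endothelium, 51.7 ± 74.99 CPM in granulocytes and 9.83 ± 19.7 CPM in T cells. Egr1 was at 728 ± 559 CPM in microglia and 708 ± 429 CPM in border macrophages, and the step lay between monocyte-derived cells (159 ± 31.4 CPM) and the 3 lowest classes, T cells, endothelium (49.96 ± 24.3 CPM) and granulocytes (20.5 ± 21.99 CPM).

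Among the 5 classes of sham blood with at least 3 libraries, the neutrophils carried the most Fos and Junb. Classes with fewer are not in this order, such as Eos.Bas, whose 2 sham libraries had Junb at 2101 and 402 CPM. Fos was at 1069 ± 286 CPM in neutrophils, 639.8 ± 192 CPM in monocytes and 115 ± 104 CPM in B cells, with all neutrophil libraries above all monocyte libraries and these above all B cell libraries. T cells (33.2 ± 32.3 CPM) and NK cells (25.1 ± 36.8 CPM) were lowest and overlapped with B cells. Junb was at 1158 ± 80.1 CPM in neutrophils and 327 ± 69.98 CPM in monocytes, with no overlap. Atf3 was at 63.2 ± 18.02 CPM in monocytes, apart from the 15.4 ± 9.74 CPM of neutrophils. Among these 5 classes Egr1 had no mean above 7.82 CPM in the sham mice, and Fosb none above 16.7 CPM.

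In microglia, the resident macrophages of the brain, 4 of the 8 genes were lower 2 days after stroke than after sham surgery, and none was called at day 14 against sham. Jun, the partner of Fos and Fosb, read 1774, 4336, 6209.6 and 1467 CPM in sham replicates 1 to 4, 284, 196, 441 and 1078 CPM at day 2 and 2449.8, 386, 924 and 2601 CPM at day 14. All 4 day 2 libraries were below all 4 sham libraries, and the day 14 libraries overlapped with both groups. The fitted log2 fold change at day 2 was -2.61 ± 0.73 (SE, as below), a fall of 6.09-fold, with an adjusted p of 0.0166 in edgeR's quasi-likelihood test. In this test p-values were adjusted by Benjamini-Hochberg over the 10145 genes tested, and a gene was called where the adjusted p was under 0.05.

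Jund, a Jun gene known for steadier expression, followed the same course, with 279, 394, 485 and 163 CPM in sham, 60.03, 82.6, 23.6 and 74.96 CPM at day 2 and 848, 114, 122 and 316 CPM at day 14. It fell by day 2 (-2.06 ± 0.61, adjusted p = 0.0211) and was higher again at day 14 than at day 2 (2.59 ± 0.62, adjusted p = 0.0229), with no overlap of libraries in either comparison. Fosb read 106, 318, 622 and 59.99 CPM in sham, 31.1, 11.1, 35.4 and 54.3 CPM at day 2 and 729.5, 74.8, 110.3 and 342 CPM at day 14. The day 2 libraries lay below every library of the other 2 groups, and the log2 fold change was -2.81 ± 0.88 at day 2 against sham (adjusted p = 0.0281) and 3.42 ± 0.90 at day 14 against day 2 (adjusted p = 0.0361). Egr1 read 362, 907, 1435 and 206 CPM in sham and 67.6, 43.9, 56.4 and 242 CPM at day 2, where replicate 4 reached above the lowest sham library, and fell with a log2 fold change of -2.49 ± 0.89 (adjusted p = 0.0468).

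The other 4 genes did not pass the test in microglia. Fos read 622, 1894, 2814 and 352 CPM in sham, 136, 105, 702 and 724 CPM at day 2 and 4015, 291, 880.5 and 1421 CPM at day 14, so that sham replicates 1 and 4 lay within the day 2 range. The day 14 libraries spread over both. The log2 fold change of Fos at day 2 was -1.77 ± 0.88 (adjusted p = 0.132). Atf3, at -1.13, Junb, at -0.64, and Ier2, at -0.62, also had overlapping libraries and were not called. At day 14 against sham the 8 log2 fold changes ran from -0.70 for Jun to 0.95 for Atf3, with no call by edgeR or by DESeq2, while 15.2% of all genes were called and 3342 had an unadjusted p under 0.05.

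The calls in microglia stood beside wide changes and uneven libraries. At day 2 against sham, 31.4% of all genes tested were called and 15.7% were called lower than in sham, beside 4 of the 8, all lower. From day 2 to day 14 6.93% were called and 3.47% were higher at day 14, beside 2 of the 8, both higher. Summed microglial markers were 14609.7 to 21335 CPM in sham, 817 to 12466 CPM at day 2 and 9815 to 13704 CPM at day 14. Without day 2 replicate 3, the library of 58 cells, Jun and Jund were still called, while Fosb had an adjusted p of 0.0513 and Egr1 of 0.095, and 1 call was left at day 14 against day 2. No gene was called without sham replicate 3 (adjusted p of 0.0681 for Jun) or without day 2 replicate 1 (0.0652 for Jun), 2 were without sham replicate 2 or day 2 replicate 2, and 3 without sham replicate 4 (Egr1 lost, 0.0535) or day 2 replicate 4 (Jund lost, 0.0514). Between the stroke times no call was left without day 14 replicate 1 or without either of day 2 replicates 1 and 4. Fosb alone was lost there without day 2 replicate 2 (0.0846) or without day 14 replicate 4 (0.0683), and Egr1 was added without day 14 replicate 2. Jund missed the threshold there with only the compared groups in the fit (0.052). With the mitochondrial split as a term, Egr1 at day 2 had an adjusted p of 0.0511 and the other 3 calls held. For day 14 against day 2 the term added Egr1 (3.19 ± 0.94, adjusted p = 0.0461) and Jun (2.15 ± 0.64, adjusted p = 0.0467). Within the low-mitochondrial libraries the log2 ratio of mean Jun at day 2 over sham, with 1 CPM added to each mean here and in such ratios below, was -2.88, and within the others -2.40.

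**Figure D1:**
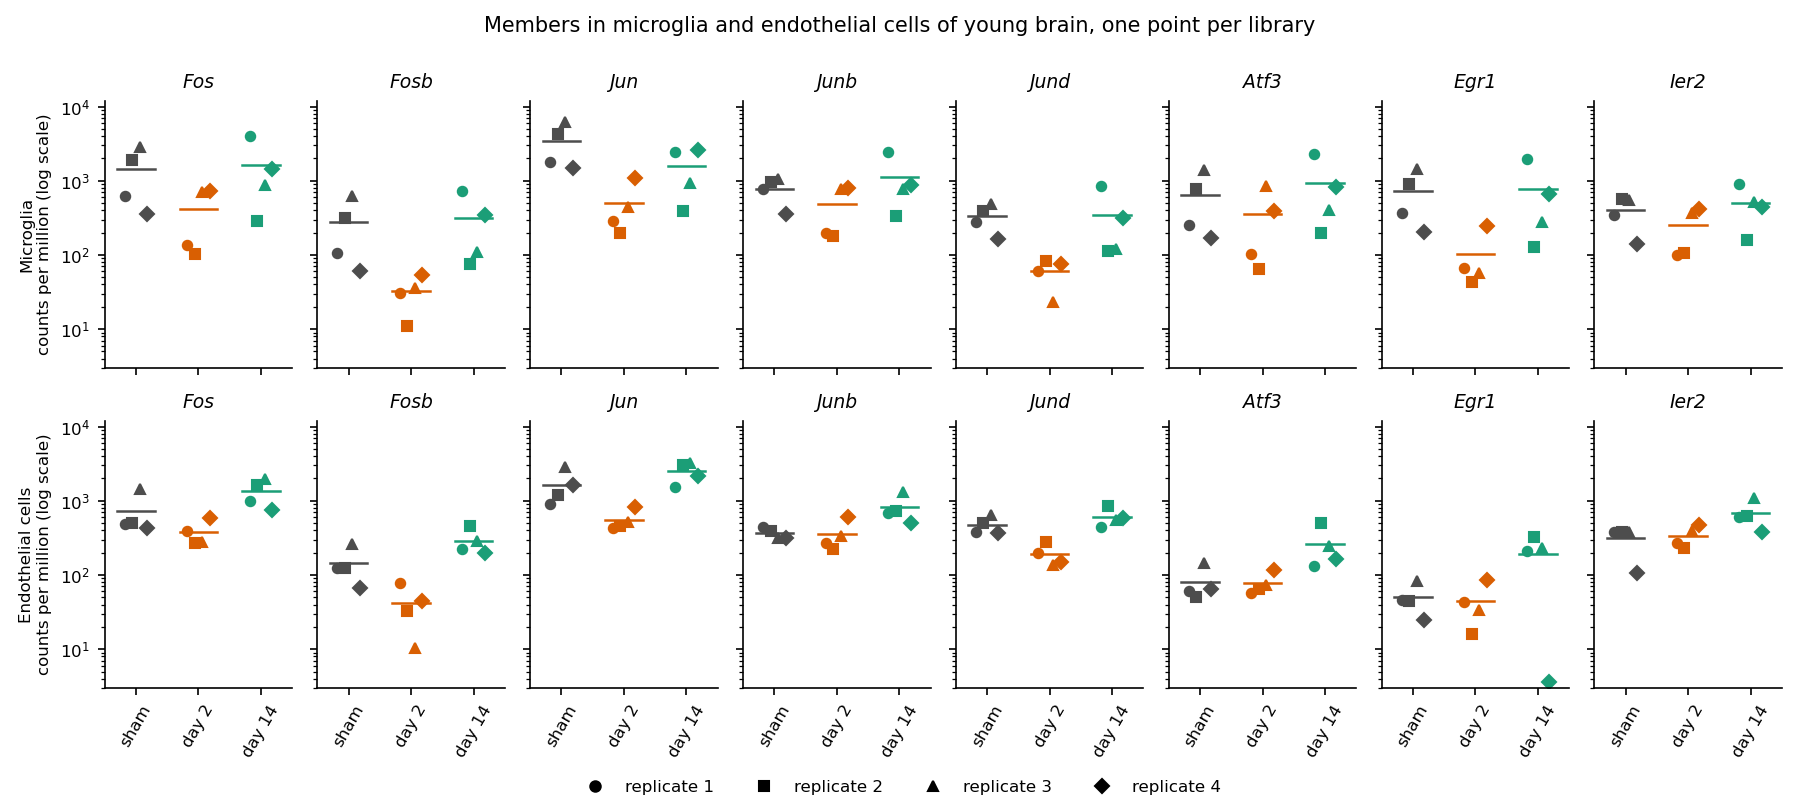
Levels of the 8 genes in microglia and endothelial cells of young brain, in CPM on a log axis, for the sham, day 2 stroke and day 14 stroke libraries (4 each). Each marker is a library, its shape the replicate number, and each bar the group mean; the zero for Egr1 in endothelial day 14 replicate 4 is drawn at the floor of the axis. Jun, Jund, Fosb and Fos have their lowest mean at day 2 in both cell types. In endothelial cells Atf3, Egr1 and Junb do so too, by small margins below sham (78.0 against 80.6 CPM for Atf3).

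In endothelial cells, which line the vessels, Fosb, Jun and Jund were lower at day 2 than in sham, and 7 of the 8 genes were higher at day 14 than at day 2. Jun read 892, 1209, 2844 and 1635 CPM in sham, 431, 451, 518 and 829 CPM at day 2 and 1534, 3069, 3229 and 2180.4 CPM at day 14. Every day 2 library lay below every library of the other 2 groups. The log2 fold change was -1.46 ± 0.37 at day 2 against sham (adjusted p = 0.0179) and 2.07 ± 0.37 at day 14 against day 2 (adjusted p = 0.00303).

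Jund read 374, 504, 652 and 366 CPM in sham, 199.6, 275, 136 and 151 CPM at day 2 and 438, 845, 559 and 586 CPM at day 14, again with day 2 apart from both other groups (-1.24 ± 0.30, adjusted p = 0.0151, and 1.58 ± 0.30, adjusted p = 0.00401). Fosb read 126, 124, 264 and 66.6 CPM in sham, 77.3, 33.1, 10.4 and 45.3 CPM at day 2 and 226, 451, 284 and 199 CPM at day 14. Sham replicate 4 lay within the day 2 range, and all day 14 libraries lay above that range. Fosb fell at day 2 by 1.68 ± 0.46 on the log2 scale (adjusted p = 0.0266) and was 2.69 ± 0.44 higher at day 14 than at day 2 (adjusted p = 0.00219), 6.44-fold.

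The genes Fos, Atf3, Junb and Egr1 were called between the 2 stroke times. Fos read 388, 269, 277 and 579 CPM at day 2 and 1005, 1654, 1987 and 751 CPM at day 14, with no overlap (1.73 ± 0.42, adjusted p = 0.0163). Its sham libraries (486, 508, 1459 and 436 CPM) overlapped with both. Atf3 read 57.6, 63.8, 73.8 and 117 CPM at day 2 and 133, 505, 243 and 163 CPM at day 14 (1.61 ± 0.41, adjusted p = 0.0198), also apart. Junb read 270.2, 221, 337 and 607 CPM at day 2 and 689.8, 733, 1329.7 and 509 CPM at day 14 (1.07 ± 0.33, adjusted p = 0.046), where day 14 replicate 4 lay below day 2 replicate 4. Egr1 read 42.8, 16.1, 33.7 and 86.2 CPM at day 2 and 208, 324, 232 and 0 CPM at day 14 (1.96 ± 0.57, adjusted p = 0.0376). The 0 in day 14 replicate 4 allows up to 25.9 CPM, the level of 3 counts in that library, so that this library was among the lowest of both groups while the other 3 were above every day 2 library. Ier2 was not called (0.89 ± 0.36, adjusted p = 0.115).

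Over all genes tested in endothelium, 13.3% were called at day 2 against sham and 6.45% were called lower, beside 3 of the 8. Between the stroke times 11.2% were called and 5.07% were higher at day 14, beside 7 of the 8. For day 14 against sham edgeR called no gene at all (0% of 5833, with 356 at an unadjusted p under 0.05) and DESeq2 none of the 8. The fitted log2 fold changes of the 8 were all above 0, from 0.35 for Jund to 1.97 for Egr1. Summed endothelial markers were 18185 to 26545 CPM in sham, 12882 to 16769.7 CPM at day 2 and 18488 to 21256 CPM at day 14, and summed microglial markers did not exceed 60.9 CPM in any of these libraries (4 of the 6 markers had a count in the pooled cells). Summed red cell markers were 36.6 to 3545 CPM in sham, 0 to 6069 CPM at day 2 and 0 to 9732 CPM at day 14 (5 of the 6 markers were in the table). The part of red cell RNA in these results was not tested. Fosb, Jun and Jund kept their day 14 against day 2 call without each library in turn. At day 2 against sham no call was left without sham replicate 3 (adjusted p of 0.0684 for Jund), 1 without sham replicate 2 (Jun) or day 2 replicate 3 (Jund) or 4 (Jun), and 2 without sham replicate 4 or day 2 replicate 1 (Jun lost, 0.0546 and 0.0563). Of the 7 calls at day 14 against day 2, 3 were left without day 2 replicate 3, and 4 without day 2 replicate 1 or without either of day 14 replicates 2 and 3, with adjusted p-values of up to 0.119 for Egr1 and 0.167 for Junb. Over the 8 fits that left out 1 library, Fos kept this call in 6, Atf3 in 5, Egr1 in 2 and Junb in 1. Between the stroke times Egr1 missed the threshold with DESeq2 (0.115), Junb with counts rounded up (0.051) or without the filter on low counts (0.059), and both with only the compared groups in the fit (0.073 and 0.0756). The split by mitochondrial counts changed no endothelial call, and within the low and high libraries the log2 ratio of mean Fosb plus 1 CPM at day 14 over day 2 was 2.59 and 3.07.

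**Figure D2:**
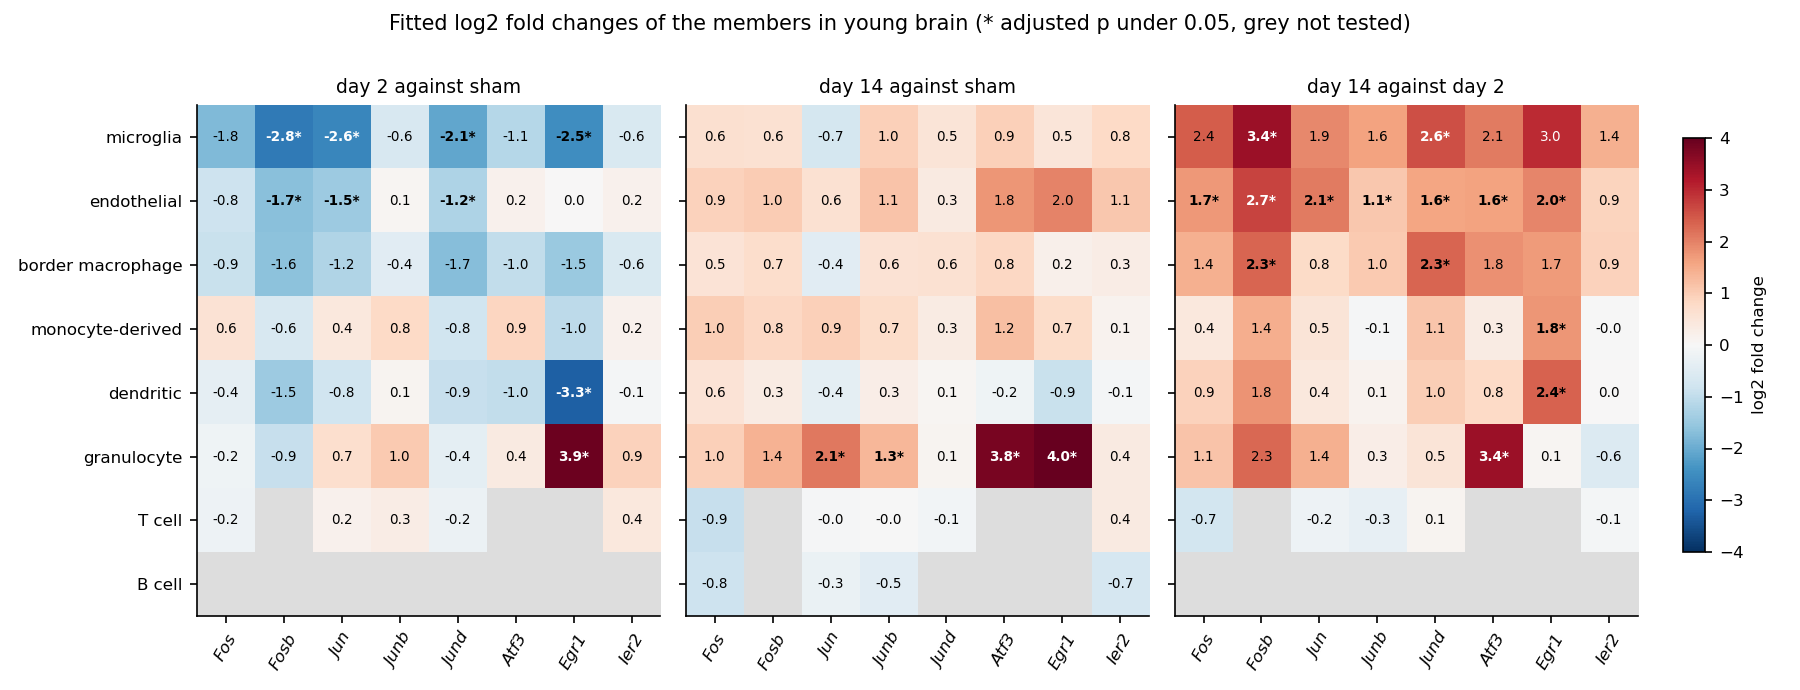
Heat map of fitted log2 fold changes of the 8 genes in cell types of young brain, for day 2 against sham, day 14 against sham and day 14 against day 2, with an asterisk where edgeR's adjusted p was under 0.05 and grey where a gene was not tested. Called changes at day 2 are falls in microglia, endothelium and DC and a rise of Egr1 in granulocytes. All called changes at day 14, against sham or against day 2, are rises.

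Border macrophages had 2 calls, Fosb and Jund, both higher at day 14 than at day 2, where 0.838% of all genes were called and 0.381% were higher. Fosb read 429, 693, 1163 and 617 CPM in sham, 303, 157, 228 and 227 CPM at day 2 and 2392, 659.9, 479.6 and 974 CPM at day 14 (day 14 against day 2 2.33 ± 0.52, adjusted p = 0.047). Jund read 354, 469, 518 and 715 CPM, 75.6, 237, 104 and 198 CPM and 1391, 524, 325 and 539 CPM (2.32 ± 0.48, adjusted p = 0.0317). For both genes every day 2 library lay below every sham and every day 14 library. Against sham neither passed at day 2, where Jund had -1.71 ± 0.48 (adjusted p = 0.0663) and Fosb -1.63 ± 0.51 (adjusted p = 0.0883). There edgeR called 2.67% of all genes (301 unadjusted under 0.05) and DESeq2 1 of the 8. For day 14 against sham edgeR called 0.0762% of all genes (79 unadjusted under 0.05) and neither tool any of the 8. These libraries held 20 to 77 cells at day 14, and both calls were lost without any 1 of the day 2 replicates or without day 14 replicate 1 or 4, with adjusted p-values of up to 0.244 for Fosb and 0.232 for Jund. Both were also lost without the filter on low counts (0.0863 for Fosb and 0.094 for Jund) and with only the compared groups in the fit (0.0934 for each). With the mitochondrial split as a term both were kept and Atf3 was added (0.0488). Summed microglial markers in this class were 139 to 1637 (median 910) CPM in sham, 335 to 1825 (median 1539) CPM at day 2 and 409 to 1711 (median 788) CPM at day 14. Their part in the calls was not tested.

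Monocyte-derived cells enter the injured brain from blood, and the class MdC held 43 to 99 cells per library in sham and 1468 to 2180 at day 2. Fos did not pass the test: it read 2020.0, 1676, 2288 and 2098 CPM in sham, 2104, 1430.3, 2504 and 2366 CPM at day 2 and 3610.4, 2240.0, 2990.4 and 2737 CPM at day 14 (day 14 against sham 0.99 ± 0.28, adjusted p = 0.0531). Egr1 read 112, 177, 173 and 172 CPM in sham, 77.1, 59.1, 60.5 and 22.9 CPM at day 2 and 312, 277, 84.9 and 85.2 CPM at day 14, with day 2 below all libraries of the other groups. The rise of Egr1 from day 2 to day 14 was the 1 call of the class (1.78 ± 0.42, adjusted p = 0.0424), beside 1.79% of all genes called and 0.829% higher. Leaving out day 14 replicate 1 (0.206) or 2 (0.126), or day 2 replicate 1 (0.0766), 3 (0.109) or 4 (0.145) ended this call, as did library size scaling without TMM (0.0571), only the compared groups in the fit (0.119) or at least 50 cells per library (0.0834), while Jund was added without day 2 replicate 2. Summed microglial markers in this class were 0 to 436 (median 115) CPM in sham, 270.3 to 655 (median 498) CPM at day 2 and 289 to 1807 (median 1308) CPM at day 14, with all 6 detected in the pooled cells, and their part in the rise was not tested. No gene of the 8 was called against sham by edgeR, beside 6.71% of all genes at day 2 (1623 unadjusted under 0.05) and 5.15% at day 14 (1361). DESeq2 called none at day 2 and 2 at day 14, and edgeR called Jun at day 14 without sham replicate 3. With the mitochondrial split as a term, Jund was lower at day 2 than in sham (adjusted p = 0.0249), Atf3 (1.27 ± 0.33, adjusted p = 0.0276) and Fos (1.03 ± 0.28, adjusted p = 0.0342) were higher at day 14 than in sham, and day 14 against day 2 had 3 calls. In the fit without that term, the median log2 fold change over all genes against sham was 0.29 at day 2 and 0.28 at day 14. Scaled by library size alone, these medians were -0.13 and -0.11.

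In the DC class 1 gene was called, Egr1. It read 144, 344, 471 and 194 CPM in sham, 31.6, 29.01, 23.3 and 33.8 CPM at day 2 and 264, 145, 89.9 and 79.8 CPM at day 14, so that the day 2 libraries were below all others. Egr1 fell at day 2 with a log2 fold change of -3.27 ± 0.52 (adjusted p = 0.0106), the 1 call among the 8 where 1.01% of all genes were called and 0.321% were lower, and kept this call without each library in turn and under every other setting tried. It was higher at day 14 than at day 2 (2.36 ± 0.48, adjusted p = 0.0307), beside 0.893% of all genes called and 0.435% higher. Of the 8 fits that left out 1 library, this call held in the fit without day 14 replicate 4 alone, and the adjusted p reached 0.122 without day 2 replicate 4. Fosb (means of 93 and 263 CPM) and Jun (362 and 642 CPM) were also lower in every day 2 library than in every sham library. Fos was higher in every day 14 library than in every day 2 library (means of 1315 and 698 CPM). These differences of Fosb, Jun and Fos were not called. At day 14 against sham none of the 8 was called, by edgeR (1.53% of all genes; 503 unadjusted under 0.05) or DESeq2. Summed border macrophage markers in the same libraries were 319.9 to 1135 CPM in sham, 91.04 to 143 CPM at day 2 and 36.1 to 152 CPM at day 14, and summed monocyte and macrophage markers were 5766 to 6577, 3118 to 5210.4 and 3032 to 4841 CPM. Summed dendritic cell markers were 1262 to 1826 CPM in sham, 541 to 988 CPM at day 2 and 904 to 1858 CPM at day 14. Summed B cell markers were 124.5 to 224 CPM in sham, 65.8 to 99.97 CPM at day 2 and 106 to 330 CPM at day 14. All these sums were lower in every day 2 library than in every sham library, and their part in the fall of Egr1 was not tested. The split by mitochondrial counts left both calls in place and added Fosb and Jund at day 14 against day 2. The log2 ratio of mean Egr1 plus 1 CPM at day 2 over sham was -2.22 in the low and -3.51 in the high libraries.

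In granulocytes of brain, a class in which the neutrophil markers led, Egr1 was higher than in sham at day 2 and at day 14, and Atf3, Jun and Junb were higher at day 14. Egr1 read 10.7, 0, 51.1 and 20.1 CPM in sham, 519.8, 599, 175 and 214 CPM at day 2 and 622, 312, 442 and 252 CPM at day 14, where the 0 of sham replicate 2 allows up to 25.6 CPM. Every stroke library lay above every sham library. The log2 fold change was 3.91 ± 0.68 at day 2 (adjusted p = 0.00122) and 3.99 ± 0.67 at day 14 (adjusted p = 0.00025), both against sham.

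Atf3 read 16.3, 16.2, 164 and 10.2 CPM in sham, 100.2, 97.7, 21.3 and 101 CPM at day 2 and 1310.0, 727, 828 and 854 CPM at day 14. All day 14 libraries were above all others, while sham replicate 3 exceeded the day 2 libraries. The rise at day 14 was 3.80 ± 0.57 against sham (adjusted p = 8.1e-05), 13.96-fold, and 3.43 ± 0.59 against day 2 (adjusted p = 0.00206).

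Jun read 170.3, 117, 155 and 105 CPM in sham, 492, 249, 221 and 175 CPM at day 2 and 737, 1557, 499.6 and 630.3 CPM at day 14, with no overlap between any pair of the groups. It passed at day 14 against sham (2.10 ± 0.41, adjusted p = 0.000948) and not between the stroke times (1.41 ± 0.42, adjusted p = 0.0592). Junb read 1524, 1015, 1362 and 1073 CPM in sham, 2698, 2050.1, 2550.5 and 4251 CPM at day 2 and 5669, 3324, 4461 and 2637 CPM at day 14, with both stroke groups above sham in every library. It passed at day 14 (1.32 ± 0.35, adjusted p = 0.00904) and not at day 2 (1.05 ± 0.35, adjusted p = 0.0754). Fos read 904, 880.2, 1420.3 and 708 CPM, 952, 324, 1147 and 1365 CPM and 2608, 1434, 2918 and 2543 CPM in the same order, apart at day 14 from both other groups but with an adjusted p of 0.0731 against sham (0.96 ± 0.38). Fosb, listed at 0 in day 2 replicates 1 and 2 (which allows up to 157 and 138 CPM), Jund and Ier2 were not called by edgeR in any comparison of the class. DESeq2 called Junb at day 2 against sham (0.0377) and Fos, Fosb and Jun between the stroke times (0.0471, 0.037 and 0.037). Scaled by library size without TMM, Ier2 passed at day 2 against sham (0.0409). Junb passed there too (0.0143). In that scaling Fos and Fosb passed at day 14 against sham (0.00562 and 0.0413), and Fos, Fosb and Jun against day 2 (0.0296, 0.0433 and 0.0313).

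Of all genes in granulocytes, 8.35% were called at day 2 against sham and 5.53% were higher, beside 1 of the 8. In day 14 against sham these shares were 26.1% and 13%, beside 4 of the 8, and between the stroke times 4.23% and 1.81%, beside 1. These fits tested 994 genes in libraries of 29 to 169 cells. No call was lost when 1 library was left out. Fosb was added at day 14 against sham without sham replicate 3, and Fos without day 14 replicate 2. Jun was added between the stroke times without day 2 replicate 1, and Fosb and Jun without day 14 replicate 3. With no filter on low counts, Jun (adjusted p = 0.0501) and Junb (0.481) lost their call. Scaling by library size alone moved the median fold change over all genes at day 14 against sham, on the log2 scale, from -0.06 to 0.44, and no called gene changed direction. Markers of the class differed between the groups too: summed neutrophil markers were 222171 to 290444 (median 272391) CPM in sham, 111716 to 204005 (median 167225) CPM at day 2 and 54027 to 70585 (median 61497) CPM at day 14, with all 6 detected. Summed microglial markers were 94.3 to 361 CPM, 65.4 to 539 CPM and 369 to 499.8 CPM, and summed monocyte markers 6857 to 9074 CPM, 1416 to 5739 CPM and 987 to 2997 CPM. The part of these marker levels in the rises was not tested. The calls also held with the mitochondrial split as a term, which added Junb at day 2 against sham, Fos at day 14 against sham and Fos (1.17 ± 0.34, adjusted p = 0.043) and Jun (1.36 ± 0.33, adjusted p = 0.0158) between the stroke times.

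**Figure D3:**
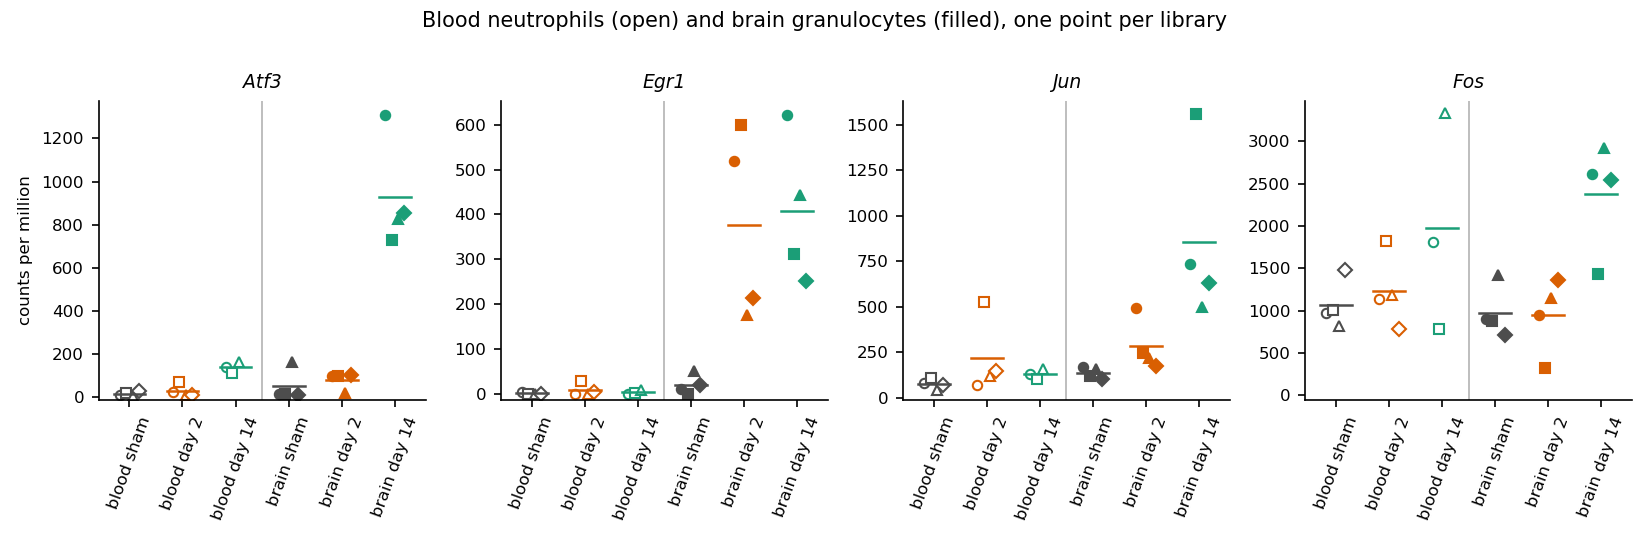
Atf3, Egr1, Jun and Fos in blood neutrophils (open markers) and brain granulocytes (filled markers) of young mice, in CPM, for sham, day 2 and day 14; each marker is a library and each bar a group mean. Brain day 14 libraries of Atf3 (727 to 1310 CPM) lie above blood day 14 libraries (112 to 162 CPM), while the Fos levels of both tissues overlap.

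In brain T cells 5 of the 8 genes were tested and none was called, by edgeR or DESeq2. Of all genes, edgeR called 0.0954% at day 14 against sham and 0% in the other comparisons. The genes at an unadjusted p under 0.05 were 75 at day 2 against sham, 90 at day 14 against sham and 24 between the stroke times. Junb read 1802, 1059, 829 and 714 CPM in sham, 1529, 1254 and 1380.0 CPM in the 3 day 2 libraries with enough cells and 876, 868, 1749 and 881 CPM at day 14. In brain B cells 4 of the 8 were tested between day 14 and sham, and edgeR and DESeq2 called none (0% of all genes by edgeR, with 20 of 409 unadjusted under 0.05).

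In blood, 1 of the 8 genes was called in 1 cell type, Atf3 in neutrophils at day 14. It read 8.43, 17.96, 7.17 and 28.1 CPM in sham, 24.5, 68.8, 11.5 and 9.36 CPM at day 2 and 139, 112 and 162 CPM in the 3 day 14 libraries. The day 14 libraries lay above all others. Its log2 fold change was 3.13 ± 0.49 against sham (adjusted p = 0.00204), beside 5.99% of all genes called and 2.18% higher. This call held without each library in turn and in every other setting. Against day 2 it was 2.03 ± 0.45 (adjusted p = 0.016), beside 4.69% of all genes called and 1.4% higher. This one was not kept without day 2 replicate 1 (0.059), nor without day 14 replicate 1 (0.0664) or 3 (0.0658). Scaling by library size alone moved the median log2 value over all genes at day 14 against sham from 0.02 to 0.36. Summed neutrophil markers were 197359 to 301418 CPM in sham, 168848 to 264007 CPM at day 2 and 110786 to 188932 CPM at day 14. Summed monocyte and macrophage markers were 4703 to 8875, 3450.2 to 10648 and 6809.8 to 15151 CPM in the same order and overlapped between the groups. Summed B cell markers were 0 to 116 CPM in sham, up to 54.1 CPM at day 2 and 149.8 to 299 CPM at day 14 (all 6 detected), and summed mural cell markers 31.6 to 106, 28.02 to 48.1 and 135 to 180.5 CPM (2 of 6 detected), both higher in every day 14 library than in all others. The part of these marker levels in the rise of Atf3 was not tested. Fos in the same cells read 972, 1004, 818 and 1481 CPM in sham and 1808, 788 and 3329 CPM at day 14, on both sides of the sham range, and was not called.

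At day 2 no gene was called in blood neutrophils by edgeR (0% of all genes, with 209 of 4944 unadjusted under 0.05), and none of the 6 members tested there (Egr1 and Fosb were not) by DESeq2. The level of Jun there turned on 1 library: it read 78.9, 109, 42.7 and 67.9 CPM in sham and 72.1, 527, 119 and 146 CPM at day 2, where replicate 2 stood far above the rest (1.39 ± 0.42, adjusted p = 0.944). In monocytes the same replicate stood out, with Jun at 200.1, 176, 72.2 and 42.9 CPM in sham and 163, 1003, 243 and 166 CPM at day 2 and Atf3 at 80.3, 64.2, 38.1 and 70.2 CPM and 81.4, 363, 138 and 35.4 CPM. No member was called in blood monocytes (7 of the 8 tested, not Egr1), B cells (7, not Atf3), T cells (5, not Atf3, Egr1 or Fosb) or NK cells (2, Junb and Ier2) at any time, by edgeR with its filter on low counts or by DESeq2. Without the filter edgeR called Jun at day 2 against sham in neutrophils, monocytes and T cells, and between the stroke times Jun in the same classes with Fos and Junb in T cells. The genes called there by edgeR were 0.254% at day 14 against sham and 0.537% at day 14 against day 2 in monocytes (366 and 517 unadjusted under 0.05), 0.0114% for each of these comparisons in B cells, and 0% elsewhere.

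Set against blood cells of the nearest kind in 13 comparisons, 56 of 98 tests of these genes were called, all with the higher level in brain. Tissue, entry into the brain, enzymatic digestion and sorting cannot be told apart in this comparison. In monocyte-derived cells of sham brain against sham blood monocytes all 8 genes were called higher, where 2.45% of all genes were called and 1.75% were higher. Egr1 read 112, 177, 173 and 172 CPM in brain and 4.58, 7.55, 2.57 and 8.24 CPM in blood, a log2 difference of 4.46 ± 0.58 (adjusted p = 2.73e-05). Atf3 read 709.9, 579.5, 1091 and 578 CPM in brain and 80.3, 64.2, 38.1 and 70.2 CPM in blood (3.34 ± 0.47, adjusted p = 7.97e-05), and Fos 2020.0, 1676, 2288 and 2098 CPM and 806, 797, 533 and 423 CPM (1.45 ± 0.28, adjusted p = 0.00212). No library overlapped for any of the 8 genes, and the share of all genes without such overlap is not given here. Fosb differed by 3.65, Jun by 2.05, Junb by 1.79, Jund by 1.60 and Ier2 by 1.07 on the log2 scale.

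At day 2, 6 of the 8 were called between these classes (of all genes 26.4%, and 14% higher in brain), led by Atf3 at 3.18 ± 0.45 and Fosb at 2.62 ± 0.56, while Jun (0.93 ± 0.45, adjusted p = 0.137) and Jund (0.42 ± 0.34) were not. At day 14, 7 of 8 were called (of all genes 16.4%, and 8.64% higher), from 5.72 for Fosb to 1.87 for Jund, and Ier2 was not (0.75 ± 0.27, adjusted p = 0.0639). Summed monocyte and macrophage markers overlapped in sham and were lower in every brain library at day 2 (24753 to 34272 against 41669.9 to 57093 CPM) and day 14 (25552 to 52650.4 against 52943 to 63745 CPM). Summed microglial markers overlapped in sham and were higher in every brain library at day 2 (270.3 to 655 against 118 to 221 CPM) and day 14 (289 to 1807 against 162 to 216 CPM), with 4 of the 6 markers in the blood tables, and the part of these levels was not tested. Among the sham libraries the Ier2 call was lost without brain replicate 1, 2 or 4 or blood replicate 2, 3 or 4 (adjusted p of up to 0.177). The Jun call was lost without brain replicate 1, 2 or 3 or blood replicate 3 or 4 (up to 0.102), and the Jund call without brain replicate 1 (0.176), which left 5 of 8. At day 2 Ier2 lost its call without brain replicate 3 or 4 or blood replicate 1, 3 or 4 (up to 0.118), and Jun gained one without blood replicate 2. At day 14 Ier2 gained one without brain replicate 4, with DESeq2 (0.0108), with at least 50 cells (0.0438), with counts rounded up (0.0417) and with only the compared groups in the fit (0.0381). Its call was lost with at least 50 cells (0.0512) or without the filter (0.12) in sham, and without TMM (0.158) or with only the compared groups (0.0622) at day 2.

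Between brain granulocytes and blood neutrophils, Fos was not called at any time, with log2 differences of -0.07 ± 0.41 in sham, -0.38 ± 0.41 at day 2 and 0.28 ± 0.44 at day 14. In sham 1 gene was called, Fosb (5.02 ± 0.79, adjusted p = 6.21e-05), beside 5.08% of all genes called and 3.76% higher in brain. At day 2 the calls were Egr1 (5.77 ± 0.77), Fosb (2.88 ± 0.86) and Junb (1.16 ± 0.34), beside 12.4% and 7.68%. At day 14 they were Egr1, Fosb (3.19 ± 0.68), Atf3 (2.69 ± 0.45), Jun (2.39 ± 0.45) and Junb (1.33 ± 0.38), beside 21.3% and 11.1%. Summed neutrophil markers overlapped between the tissues in sham and at day 2, and were 54027 to 70585 CPM in brain and 110786 to 188932 CPM in blood at day 14. Summed microglial markers, of which the blood tables hold 4 of 6, were 94.3 to 361, 65.4 to 539 and 369 to 499.8 CPM in brain and 35.98 to 56.4, 23.3 to 47.5 and 29.3 to 51.5 CPM in blood in sham, at day 2 and at day 14, higher in every brain library. The part of these marker levels in the calls was not tested. Egr1 at day 14 rested on 68 counts in brain against 3 in blood over the groups, a ratio of CPM of 180.5 with a 95% counting interval of 59.2 to 897. At day 2, Fosb and Junb lost their call without brain replicate 3 (0.138 and 0.051) or 4 (0.159 and 0.211), and at day 14 Junb lost it without brain replicate 1 or 3 or blood replicate 2 or 3 (up to 0.156). Without the filter on low counts Junb was not called at day 2 (0.393) or day 14 (0.357).

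In the DC class all 8 genes were higher in brain than in blood at day 14, the 1 time with enough blood cells, beside 6.66% of all genes called and 4.74% higher. Fos read 1573, 1057, 1359.7 and 1269.5 CPM in brain and 438, 217 and 265 CPM in blood (2.31 ± 0.34, adjusted p = 0.000371), with no overlap. Of the other genes, Ier2 was lowest at 1.68 and Fosb highest at 4.10, leaving aside Egr1. Egr1 had 301 counts in brain against 1 in blood (a ratio of CPM of 47.6, 95% counting interval 8.47 to 1885). All 8 calls held without each library in turn. Summed border macrophage markers of these classes were 36.1 to 152 CPM in brain and 629 to 1296 CPM in blood, and summed monocyte and macrophage markers 3032 to 4841 CPM in brain and 16923 to 30550.3 CPM in blood. Summed dendritic cell markers were 904 to 1858 CPM in brain and 2384 to 2851 CPM in blood (5 of the 6 markers were in the blood tables). All 3 sums were lower in every brain library than in every blood library, a difference in make-up whose part in these results was not tested.

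T cells, tested for 7 of the 8, had Fosb (4.63 ± 1.06), Fos (2.60 ± 0.71) and Junb (2.40 ± 0.38) higher in sham brain than in sham blood, beside 3.75% of all genes called and 1.84% higher. Junb read 1802, 1059, 829 and 714 CPM in brain and 225, 143, 144 and 95.7 CPM in blood, with no overlap. At day 2 Fosb, Junb and Ier2 were called, beside 6.57% and 3.39%, and at day 14 6 of 7, beside 7.14% and 4.79%, with Junb at 3.59 ± 0.41. Fosb at day 14 had 34 counts in brain against 1 in blood (ratio 87.7, 95% counting interval 14.7 to 3564). Summed monocyte and macrophage markers in the T cells were higher in every brain library than in every blood library, with 967 to 2177 against 547 to 735 CPM in sham, 1143 to 2258 against 581 to 810 CPM at day 2 and 1885 to 2179 against 816 to 1097 CPM at day 14. Summed microglial markers were so at day 2 (112 to 334 against 36.4 to 78.7 CPM) and summed NK cell markers at day 14 (1057 to 1304 against 672 to 837 CPM). Both overlapped at the other times. Among the other lists, summed endothelial markers were lower in every brain library in sham (25.3 to 72.2 against 176 to 270 CPM). At day 2 they were so too (51.5 to 86.8 against 164 to 256 CPM). Summed B cell markers were also lower at day 2 (36.2 to 121 against 173 to 393 CPM), and summed dendritic cell markers higher (24.7 to 40.5 against 0 to 2.82 CPM). The part of these marker levels in the calls was not tested. Junb kept its call at all 3 times without each library in turn. In sham, Fos lost it with at least 50 cells (0.0547), without any brain replicate or without blood replicate 2, 3 or 4 (up to 0.135) and Fosb without brain replicate 2 (0.098). At day 2, Fosb lost it without brain replicate 1 or 3 or blood replicate 1 or 4 (up to 0.272) and Ier2 without brain replicate 1 or 3 (up to 0.13). At day 14, Egr1 lost it without brain replicate 1 or any blood replicate (up to 0.122) and Jun without blood replicate 2 or 3 (up to 0.0848).

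NK cells at day 14 had Jun (4.35 ± 0.74), Fos (3.82 ± 0.88) and Junb (2.97 ± 0.33) called of 5 tested, beside 3.04% of all genes called and 1.94% higher in brain. Jun read 471, 410.5 and 529 CPM in brain and 35.4, 3.48 and 30.2 CPM in blood. Summed NK cell markers were 5299 to 11645 CPM in brain and 18845 to 21348 CPM in blood. The Fos call was lost without blood replicate 1 (0.077) or 2 (0.0859). B cells of sham mice had Egr1 (4.49 ± 0.77), Jun (1.98 ± 0.50) and Junb (1.48 ± 0.36) called, beside 1% of all genes called and 0.282% higher. Summed border macrophage markers in these sham B cells were 50.8 to 362 CPM in brain and 0.593 to 8.37 CPM in blood. Summed microglial markers in the brain libraries of these cells were 0 to 604 (median 144) CPM. The part of the NK and B cell marker levels in the calls was not tested. At day 14 none was called by edgeR (0.466% of all genes, with 1124 unadjusted under 0.05), 2 were by DESeq2, and Jun and Junb by edgeR without blood replicate 3. No B cell call was left in sham without brain replicate 3, and 1 without brain replicate 1 or 2 or blood replicate 4, with adjusted p-values of up to 0.198 for Jun, 0.144 for Junb and 0.111 for Egr1. Without brain replicate 4 or blood replicate 2 Junb was lost (0.0539 and 0.0546), and without blood replicate 3 Jun (0.0566). The median log2 difference over all genes in these sham B cell and T cell comparisons was -0.54 and -0.33, against -0.08 and 0.07 when scaled by library size alone.

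In aged brain the day 2 libraries were compared with 2 sham libraries, 1 of each sex, in a joint fit with the young brain. Jun in granulocytes was the 1 call. It read 56.1 and 126 CPM in the female and male sham libraries and 928, 1027 and 377 CPM in the 2 female and 1 male stroke libraries (2.70 ± 0.63, adjusted p = 0.0249), beside 3.14% of all genes called and 2.5% higher. The stroke libraries lay above both sham libraries, but the call was lost without the male (0.181) or female sham library (0.213) or without female stroke replicate 1 (0.097), without the filter on low counts (0.0755) or with only the compared groups in the fit (0.0542). Aged microglia held Jun at 2215 and 1429 CPM in the female and male sham libraries, 1019, 213 and 849 CPM in the female and male stroke libraries of day 2, and 2058 CPM in the day 14 library. For Fos these were 992 and 894 CPM, then 607, 68.9 and 693 CPM, then 1495 CPM. The day 2 libraries of both genes lay below the sham libraries, with no call (Jun -1.31 ± 0.80, adjusted p = 0.451; Fos -0.95 ± 0.94, adjusted p = 0.693).

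No member was called at day 2 in aged microglia (2.3% of all genes called by edgeR and 1782 unadjusted under 0.05), endothelium (0.606% and 770), monocyte-derived cells (2.56% and 1387) or T cells (0% and 47), by edgeR or DESeq2, with all 8 tested in the first 3 classes and 5 in T cells (not Atf3, Egr1 or Fosb). All young libraries were male and the aged ones of both sexes, so age and sex cannot be told apart between them. The difference between the aged and the young response at day 2 was tested directly as an interaction. It was called for no gene at all in microglia, endothelium, monocyte-derived cells, granulocytes or T cells (0% of all genes by edgeR, with 623, 356, 473, 61 and 37 unadjusted under 0.05), and DESeq2 called no member tested (8 in the first 3 classes, 7 in granulocytes without Atf3, and 5 in T cells). For Jun the interaction was 1.22 ± 1.04 in microglia and 1.04 ± 0.58 in endothelium (log2 scale, aged minus young). Larger ones, also not called, were those of Egr1 in monocyte-derived cells (4.40 ± 1.05, adjusted p = 0.765) and granulocytes (-2.71 ± 0.96, 0.930). Fosb had 2.46 ± 0.89 in monocyte-derived cells (0.823) and 2.12 ± 0.82 in endothelium (0.847). In aged monocyte-derived cells Egr1 rested on 219 counts at day 2 against 1 in sham (a ratio of CPM of 6.57, 95% counting interval 1.17 to 261).

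The wider pathway was read through lists of genes around AP-1, and log2 fold changes are given for the called genes of each list that moved most. The counts stand beside the shares of all genes called. In microglia at day 2 against sham, where 15.7% of all genes were called higher and 15.7% lower, of the other early response genes 0 of 30 tested were called higher and 9 lower (median log2 fold change -1.24 against -0.05 over all genes). Klf4 (-3.17 ± 0.75) and Klf2 (-2.10 ± 0.66), zinc finger factors of quiescent cells, and Egr2 (-2.33 ± 0.54), a relative of Egr1, fell. Of the other AP-1 family genes, 1 of 14 tested were called higher and 4 lower (median log2 fold change -0.62 against -0.05 over all genes). Maf (-1.60 ± 0.43), a factor of resident macrophages, Mafg (-0.95 ± 0.33) and Atf4 (-0.96 ± 0.23), the factor of the amino acid response, fell. Of the kinases and serum response factors upstream, 0 of 17 tested were called higher and 5 lower (median log2 fold change -0.55 against -0.05 over all genes), with Elk4 (-1.42 ± 0.32), Map3k1 (-1.34 ± 0.40) and Creb1 (-1.24 ± 0.23) lower. Of the known targets of AP-1, 5 of 10 tested were called higher and 0 lower (median log2 fold change 2.35 against -0.05 over all genes). Spp1, which encodes osteopontin, was at 2.95 ± 2.04 CPM in sham and 11623 ± 4150.4 CPM at day 2. Mmp12, a macrophage protease, was listed at 0 in all sham libraries and stood at 58.7 ± 20.7 CPM at day 2, and Ccl2, a monocyte attractant, rose by 2.54 ± 0.46. Between day 2 and day 14, 4 of the 30 early response genes tested were called higher (3.47% of all genes) and 0 lower, the higher ones including Tnfaip3 (3.33 ± 0.91), an inhibitor of NF-kB, and Egr2 (2.69 ± 0.54).

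In endothelium at day 2 against sham, where 6.89% of all genes were called higher and 6.45% lower, of the other early response genes 0 of 25 tested were called higher and 1 lower (median log2 fold change -0.26 against 0.00 over all genes). The gene lower was Klf4 (-1.27 ± 0.35), a factor of the resting vessel wall. When the stroke times were compared, where 5.07% of all genes were called higher and 6.14% lower, 4 of 25 tested were called higher and 1 lower (median log2 fold change 0.58 against 0.02 over all genes). Zfp36 (1.69 ± 0.44), which speeds the decay of early transcripts, Dusp1 (1.42 ± 0.38), a phosphatase that turns MAP kinases off, and Klf4 (1.29 ± 0.35) rose with the members, and Cebpd (-1.95 ± 0.51) fell. Heat shock genes, known to rise during tissue dissociation, were read as a separate list of early stress. Of these, 2 of 13 tested were called higher and 0 lower (median log2 fold change 0.52 against 0.00 over all genes) at day 2 against sham, with the chaperones Hspe1 (2.02 ± 0.28) and Hspa5 (1.30 ± 0.30) higher while Fosb, Jun and Jund were lower. Between the stroke times 2 of 13 tested were called higher and 2 lower (median log2 fold change 0.13 against 0.02 over all genes), with Hspa1b (2.07 ± 0.49) higher and Hspe1 (-1.49 ± 0.26) lower. In microglia 1 of the 12 tested, Hspe1, was higher at day 2 (1.07 ± 0.24), beside 15.7% of all genes. The part of dissociation in the levels of the members was not tested.

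In brain granulocytes other early response genes rose beside Egr1. For day 2 against sham 9 of 23 tested were called higher and 0 lower (median log2 fold change 0.91 against -0.01 over all genes), where 5.53% of all genes were called higher. For day 14 against sham 13 of 23 tested were called higher and 0 lower (median log2 fold change 1.41 against -0.06 over all genes), where 13% were higher. Gadd45b (4.51 ± 0.36 at day 14), a stress gene of MAP kinase signalling, Dusp2 (3.77 ± 0.46), a phosphatase of immune cells, and Nr4a1 (3.03 ± 0.41), an orphan nuclear receptor, led the rise. Of the AP-1 targets, 2 of 7 tested were called higher and 0 lower (median log2 fold change 0.92 against -0.01 over all genes) at day 2 against sham, Tnf among the higher ones (3.85 ± 0.61), and 4 of 7 tested were called higher and 1 lower (median log2 fold change 1.33 against -0.06 over all genes) at day 14 against sham. Border macrophages had 2 early response genes lower at day 2 (Nfkbiz -2.14 ± 0.52 and Klf4 -2.03 ± 0.45, of 27 tested, beside 0.914% of all genes lower), and DC had 1 (Klf2 -2.56 ± 0.35, of 31, beside 0.321%). Monocyte-derived cells had 3 higher, Sgk1 (2.78 ± 0.32), Ier3 (1.75 ± 0.25) and Zfp36 (1.17 ± 0.32), and 1 lower, Klf2 (-2.28 ± 0.38), of 32 tested, beside 5.66% of all genes higher and 1.05% lower. Between the tissues, 15 of 31 early response genes were higher and 1 lower in sham monocyte-derived cells than in blood monocytes, with a median of 1.65 against -0.25 for all genes (1.75% of all genes were called higher and 0.694% lower). In sham T cells it was 14 higher and 1 lower of 27, beside 1.84% and 1.9% of all genes (2.04 against -0.33), and in DC at day 14 19 higher and 1 lower of 32, beside 4.74% and 1.92% (2.63 against 0.04, or 2.38 with the 3 genes listed at 0 in a group at their lower bound). Heat shock genes were called higher in brain in 2 of 12 for the sham monocyte pair and 3 of 6 for the sham granulocyte pair (beside 1.75% and 3.76% of all genes), among them Hspa1a, which was at 132 ± 39.9 CPM in sham monocyte-derived cells and 1.94 ± 3.89 CPM in sham blood monocytes.

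The genes whose levels ran most like the mean of the 8, over 55 library-by-type points of young brain (12 libraries, 8 cell types, 6909 genes), were Zfp36 (Pearson r = 0.785), Ppp1r15a (0.783), Ier5 (0.691), Btg2 (0.687) and Zfand5 (0.682). In blood, over 52 points (11 libraries, 7 cell types, 6253 genes), they were Trib1 (0.899), Rhob (0.866), Dennd5a (0.862), Spop (0.847) and Kdm7a (0.847). Dusp1 was among the 10 most alike in both tissues (0.681 and 0.846). For single genes of brain, Fos ran most like Zfp36 (0.832), Junb like Btg2 (0.844), Atf3 like Zfp36 (0.841), Jun like Frmd4b (0.788) and Jund like Ythdc1 (0.741). The points share libraries and cell types, so these values describe the tables and carry no test. Between pairs of the 8 genes r ran from -0.04 to 0.839 in brain (median 0.495 of 28 pairs).

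In some libraries, part of the spread within a group was shared by the cell types. The mean log2 deviation of the 8 genes from their group mean was above 0 in all 5 cell types of blood day 2 replicate 2 (median 0.88, 0.67 to 1.01) and below 0 in all 5 of blood day 2 replicate 4 (median -0.63). Of the other blood libraries, sham replicate 2 was above 0, and sham replicate 3 and day 2 replicate 1 below 0, in all 5 types. In brain the deviation was above 0 in 6 of 7 types of day 14 replicate 1 (median 0.42) and in 7 of 8 of sham replicate 3 (median 0.32). It was below 0 in all 7 types of day 2 replicate 2 (median -0.29) and all 8 of sham replicate 1 (median -0.16). In other libraries the types differed, as in brain day 14 replicate 2, above 0 in 3 of 9 types (-1.52 to 0.66). These libraries are not groups of the study, and what sets them apart was not tested.

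**Figure D4:**
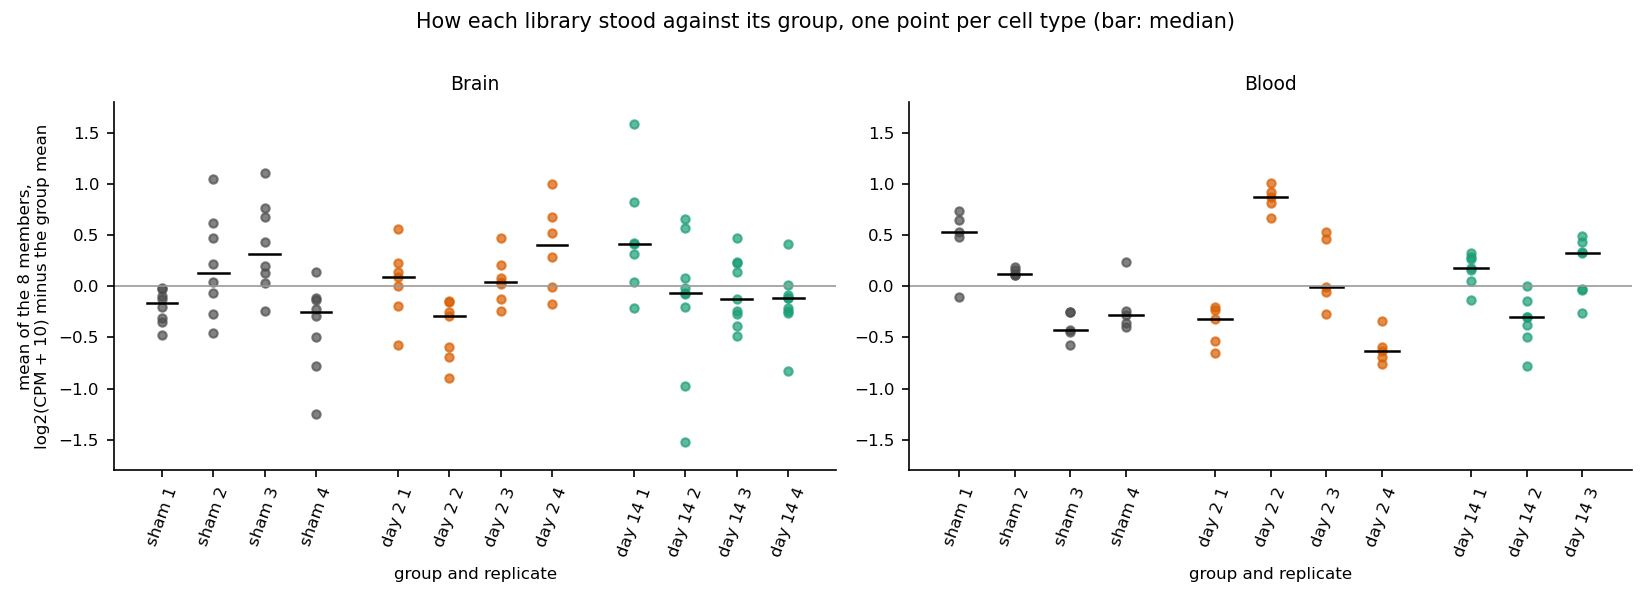
Mean log2 deviation of the 8 genes from their group mean, for each library of young brain and of blood, with 1 point for each cell type. Blood day 2 replicate 2 lies above 0 in all 5 cell types and brain day 2 replicate 2 below 0 in all 7.

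The deposited subclusters showed how unevenly the genes were spread within a cell type. They are given as a description, since the same genes may have helped to define them. In sham microglia Jun was at 5410.0 ± 2676 CPM in subcluster Mg2 (4043 cells, 4 libraries), 6854 ± 1464 CPM in Mg6 (491 cells, 2 libraries) and 1521 ± 1044 CPM in Mg1 (5826 cells, 4 libraries), and Fos at 2384 ± 1555, 3461 ± 735 and 363 ± 323 CPM. At day 2, Mg2 held 209 cells with Jun at 4035 ± 1414 CPM (2 libraries), while Mg4, with 1034 cells, had 386 ± 248 CPM. In endothelium, EC3 was the subcluster of high Jun and Fos at all 3 times. There Jun was at 3618 ± 1814 CPM in sham, 2474 ± 288 CPM at day 2 and 3955 ± 1049 CPM at day 14, and Fos at 2411 ± 1363, 2005 ± 587 and 2409.9 ± 664 CPM. EC1, which had cells in all 12 libraries, held Jun at 1523 ± 876 CPM in sham, 619 ± 232 CPM at day 2 and 1716 ± 536 CPM at day 14, lowest at day 2 as in the whole class. EC2 held 1017 cells at day 2 against 30 in sham and 32 at day 14, and its Jun at day 2 was 222 ± 89.4 CPM, below the other subclusters with 3 or more libraries.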

How the data were processed

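Single cells of mouse brain and blood were profiled by Drop-seq. Each library's table holds expected counts per gene and cell, not scaled and partly fractional, as deposited by the authors. Seurat and mm10 are named, per the submitters' processing notes, while the aligner, the cell filters and the origin of the fractions are not given in the sources used here. The genes per cell (a whole count), the percent of mitochondrial counts per cell and the cell classes come from the authors' deposited annotation. No doublet caller was run.

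Expected counts were summed per library and class (at least 20 cells), rounded, and tested with edgeR 4.0.16 in R 4.3.3 (TMM, filterByExpr, two-sided quasi-likelihood test, Benjamini-Hochberg over all genes tested in each comparison, called under 0.05), with at least 3 libraries a group, or 2 for aged sham. Brain against blood and aged against young used the genes in both tables. Alternatives, DESeq2 1.42.0 among them, are in the closing section. Nothing in the labels says that libraries of a group came from separate animals, so p-values measure the spread between pooled libraries, which may be technical. The 8 genes and the gene lists were chosen with earlier results of these data known. All 8 genes are named, with up to 3 called genes per direction from each list (mean of at least 20 CPM). Likeness is the correlation of log2(CPM + 10) over sums of at least 100 cells.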

Additional observations from a re-analysis of the deposited data

Results flagged for a closer look

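Within 220 groups of 4 libraries (a gene in a cell class, with a mean of at least 20 CPM), the highest or lowest library lay apart from the others by more than the 95% critical value of Dixon's gap test in 16. Chance alone gives about 1 group in 20 for independent, normally distributed values. The values here are CPM of genes and classes that share libraries, so that rate need not hold. Brain sham replicate 3 was the high library for Atf3 (145.1 CPM) and Fos (1459 CPM) in endothelium, for Atf3 (164 CPM) and Fosb (225 CPM) in granulocytes and for Jun (305 CPM) in T cells. Sham replicate 4 was low for Ier2 in endothelium (105.4 CPM), and sham replicate 1 for Egr1 in monocyte-derived cells (112 CPM). At day 2, replicate 4 was high for Egr1 in microglia (242 CPM) and replicate 3 low for Atf3 in granulocytes (21.3 CPM). At day 14, replicate 3 was high in brain T cells for Ier2 (519.9 CPM) and Junb (1749 CPM).

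In blood, day 2 replicate 2 was high for Jun in monocytes (1003 CPM) and neutrophils (527 CPM) and for Egr1 in B cells (69.05 CPM), and sham replicate 1 was high for Junb in B cells (429.9 CPM) and NK cells (290 CPM).

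Day 2 against sham ran in opposite directions between cell classes of young brain for Egr1 and Jun, with no overlap of the day 2 and sham libraries within any of the classes named. The difference between classes was not tested. Of the changes named, edgeR did not call Egr1 in monocyte-derived cells or Jun in granulocytes and DC. The share of all genes without overlap is not given here. Mean Egr1 at day 2 was 376.8 CPM in granulocytes, above its sham mean of 20.47 CPM. It was 29.4 CPM in DC and 54.9 CPM in monocyte-derived cells, below sham means of 288.3 CPM and 159 CPM. Mean Jun at day 2 was 284 CPM in granulocytes, above 137 CPM in sham. It was 362.5 CPM in DC, 557 CPM in endothelium and 499.8 CPM in microglia, below sham means of 642 CPM, 1645 CPM and 3447 CPM.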

How the results depend on the processing

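Calls of the 8 genes were recounted with DESeq2, library size scaling without TMM, no filter on low counts, fractional counts rounded up, only the compared groups in the fit, at least 50 cells per library and class, the replicate number as a block and, chosen after seeing the data, the mitochondrial split as a term. Of the 27 calls in young brain, 26 were kept with DESeq2, without TMM, with counts rounded up and with the mitochondrial term, 23 with the replicate block, 22 without the filter, 21 with only the compared groups and 24 of 25 with at least 50 cells. In all of these settings and all fits without 1 library together, 8 of 27 brain calls, 1 of 2 blood calls, 38 of 56 calls between the tissues and 0 of 1 call in aged mice were kept, where 6 of the 56 had no value in at least 1 of these fits and do not count as kept. No called gene changed sign in any setting.

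DESeq2 called 41 members in young brain against 27 by edgeR. By class it called 4 in microglia, 5 in border macrophages, 2 in monocyte-derived cells, 3 in DC and 4 in granulocytes at day 14 against day 2, 1 in border macrophages and 2 in granulocytes at day 2 against sham, and 2 in monocyte-derived cells at day 14 against sham. With the mitochondrial term, the calls between the stroke times were 4 in microglia, 3 in border macrophages, 3 in monocyte-derived cells, 3 in DC and 3 in granulocytes, with 1 in monocyte-derived cells and 2 in granulocytes at day 2 against sham and 2 in monocyte-derived cells at day 14 against sham. With the replicate block they were 1 in microglia (Fosb lost, adjusted p = 0.054), 6 in endothelium (Egr1 lost, 0.0581), 0 in border macrophages (0.101 for Fosb and 0.0756 for Jund), 3 in monocyte-derived cells and 3 in DC between the stroke times, and 1 in monocyte-derived cells at day 14 against sham. The replicate number pairs no samples by the labels. Between groups, deviations of libraries with the same number correlated at -0.12 to 0.62 over genes in endothelium and -0.37 to 0.68 in microglia, and 7 and 5 of 12 libraries correlated best with their own number. In blood B cells, monocytes and neutrophils 5 of 11 libraries each did so. Between brain and blood, where a shared number was added as a block after seeing the data, same-numbered libraries correlated at -0.14 to 0.40 in the monocyte pair, -0.08 to 0.11 in the granulocyte pair, -0.11 to 0.46 in T cells and -0.03 to 0.29 in B cells. This replicate block gave 57 calls against 56 and kept 54 of them. It lost Ier2 in the sham monocyte pair (adjusted p = 0.0608) and Fosb in T cells at day 2 (0.0579), and B cells at day 14 had 2. In aged mice the groups share 1 replicate number, so no replicate block was fitted. With sex as a covariate, which sets male beside male and female beside female libraries, the 1 call in granulocytes was kept and no other was made.

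With only the compared groups in the fit there was 1 call in microglia, 0 in border macrophages and 0 in monocyte-derived cells between the stroke times, and 2 in border macrophages and 2 in granulocytes at day 2 against sham. Without TMM there were 0 in monocyte-derived cells and 4 in granulocytes between the stroke times and 3 and 6 in granulocytes at day 2 and day 14 against sham, and with at least 50 cells 0 in monocyte-derived cells between the stroke times. Without the filter there were 0 in border macrophages and 2 in DC between the stroke times, and 1 in endothelium and 2 in granulocytes at day 14 against sham.

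In blood the total without the filter was 11 against 2. There were then 1 call each in neutrophils, monocytes and T cells at day 2 against sham, 2 in neutrophils at day 14 against sham (2 with counts rounded up too), and 2 in neutrophils, 1 in monocytes and 3 in T cells between the stroke times. Between the tissues, granulocytes against neutrophils in sham had 2 calls with DESeq2, 4 with counts rounded up and 0 with only the compared groups. B cells had 6 without the filter in sham, and at day 14 they had 2 with DESeq2, 2 without the filter, 2 with only the compared groups, 1 without TMM and 1 with counts rounded up. T cells had 6 with DESeq2 in sham and 5 without the filter at day 2. In aged mice the total was 2 without the filter (1 in monocyte-derived cells, 0 in granulocytes, and 1 interaction in endothelium) and 0 with only the compared groups (0 in granulocytes).

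Leaving out 1 library at a time (comparisons without that library kept their count) gave totals of 14 to 27 in young brain, with 14 without day 2 replicate 1 and 14 without day 2 replicate 3, 1 to 3 in blood, 50 to 57 between the tissues and 0 to 1 in aged mice. In young brain the ranges at day 2 against sham were 0 to 4 in microglia, 0 to 3 in endothelium, 1 to 1 in DC and 1 to 1 in granulocytes. For day 14 against sham they were 0 to 1 in monocyte-derived cells and 4 to 5 in granulocytes. Between the stroke times they were 0 to 3 in microglia, 3 to 7 in endothelium, 0 to 2 in border macrophages, 0 to 2 in monocyte-derived cells, 0 to 1 in DC and 1 to 3 in granulocytes. Blood neutrophils had 1 to 2 at day 14 against sham and 0 to 1 between the stroke times. Between the tissues, in sham, at day 2 and at day 14, the ranges were 5 to 8, 5 to 7 and 7 to 8 for monocyte-derived cells and 1 to 1, 1 to 3 and 4 to 5 for granulocytes, and 1 to 3, 1 to 3 and 4 to 6 for T cells. B cells had 0 to 3 in sham and 0 to 2 at day 14, DC had 8 to 8 and NK cells 2 to 3 at day 14. In aged granulocytes the range was 0 to 1. In the other comparisons no member was called in any of these fits. Of the calls in the fits with all libraries, 10 of 27 in brain, 1 of 2 in blood, 39 of 56 between the tissues and 0 of 1 in aged mice held without each library in turn.

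Depth limits the rare classes and genes. Border macrophages at day 14 (20 to 77 cells per library), sham monocyte-derived cells (43 to 99) and brain granulocytes (29 to 169) hold few cells, and some of their libraries give few counts of Egr1, Fosb and Atf3. The intervals of pooled counts cover counting error only, and differences below them were not detectable at this depth. Where the file lists a gene at 0, 3 counts of the library's total set the limit used.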

Other observations

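The blood class Eos.Bas, in which the neutrophil marker list was highest, entered no comparison because it had too few libraries with 20 cells. Its Egr1 level was 528 CPM in sham replicate 1 and 81.3 CPM in sham replicate 4, 347 CPM and 4093 CPM in day 2 replicates 1 and 2, and 190.4 CPM, 0 CPM and 116 CPM in the day 14 libraries. The value of 4093 CPM rests on 38 counts in 20 cells.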
